A study of Mus musculus with 20 samples.

Results

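Livers of Scd1-/- mice on a very-low-fat (VLF) diet were compared with livers of Scd1-/- mice on chow, 5 individual livers in each group. All 10 arrays of Scd1-/- liver were chosen by the genotype and diet in their labels, out of 20 arrays in the series. The VLF diet was TD03045 from Harlan Teklad, and both groups carried the same Scd1-/- genotype. The other 10 arrays came from Scd1+/+ liver on the same diets, 5 each, and served to test whether the diet change differed between genotypes. The sources used here do not give strain, age, sex, feeding before collection, time on the diet or the design of the Scd1 deletion.

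Stearoyl-CoA desaturase 1, the product of Scd1, puts the double bond into palmitate and stearate that makes palmitoleate and oleate. A diet very low in fat supplies little of these products and, in normal mouse liver, is known to turn on the conversion of carbohydrate into fatty acids. Hepatocytes also make bile acids from cholesterol, take them up from portal blood across the basolateral membrane and export them into bile across the canalicular membrane.

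Liver RNA was hybridised to Affymetrix Mouse 430 2.0 arrays, and a level here is a normalized probe set intensity with a floor of 16, with a single probe set per gene, 18193 genes in all. The array median before scaling was 32.2 to 36.5 on the 20 arrays. Albumin (Alb), transthyretin (Ttr), Apoa1 and Cps1, which define liver, were all bright in both Scd1-/- groups, at means from 10637 to 24356. Scd1 itself averaged 31.5 ± 3.97 on VLF and 45.9 ± 11.5 on chow (mean ± SD, n = 5 livers), close to the array medians, against 18151 ± 1418 and 8603 ± 1596 in Scd1+/+ livers. Xist, expressed from the inactive X chromosome, ranged from 1332 to 1937 in the 10 Scd1-/- livers, and the Y-linked Uty and Eif2s3y were at the floor. This is the pattern of female liver in both diet groups, although the labels do not give sex. The chow liver of replicate 3 stood apart from its group: its array weight was 0.32 and its score on the first principal component 6.4, against -25.5 to -18.4 in the other 4 chow livers. The VLF liver of replicate 2 had the next lowest weight among the 10, 0.44. The log2 ratio of 3' to 5' actin probe sets, a sign of RNA length, was 0.865 ± 0.091 on VLF and 1.167 ± 0.081 on chow (two-sided exact permutation test, p = 0.00794). The same ratio for Gapdh was 0.368 ± 0.043 on VLF and 0.451 ± 0.028 on chow (two-sided exact permutation test, p = 0.0159). The mean of the actin and Gapdh log2 ratios is the 3' to 5' ratio used below as a covariate. The part of RNA length in the results was not tested beyond the fit that carries this covariate.

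The diet moved a large share of the liver's genes in the Scd1-/- mice. Of 18193 genes, 6323 (34.8%) passed the test between VLF and chow (limma, adjusted p under 0.05 by Benjamini-Hochberg over all probe sets), with 3101 (17.0%) higher and 3222 (17.7%) lower on VLF. At least 2-fold changes were called for 651 rises (3.58%) and 554 falls (3.05%). The 5 VLF values lay wholly outside the range of the 5 chow values for 4589 genes (25.2%). The same diet passed the test for 287 genes (1.58%) in Scd1+/+ liver, 145 of them higher (0.797%) and 142 lower (0.781%). The genotype by diet interaction, which tests the difference between the 2 diet changes, passed for 4401 genes (24.2%), 2201 (12.1%) more positive and 2200 (12.1%) more negative in Scd1-/- liver. These 2 diet changes share no array. With the 3' to 5' ratio as a covariate only 2 Scd1+/+ genes were called (limma, adjusted p under 0.05), the vitamin C carrier Slc23a2 and C730036E19Rik, both lower and both named after their values were seen, and 1113 had an unadjusted p under 0.05. No other Scd1+/+ change given here was called in that fit, whereas the interaction still passed for 2081 positive and 2144 negative genes. Of the 6323 genes called in Scd1-/- liver, 4383 kept call and direction in that fit. The actin ratio ran from 0.96 to 1.25 in Scd1+/+ VLF livers and from 1.32 to 1.62 in Scd1+/+ chow livers. In Scd1-/- liver it ran from 0.75 to 0.97 on VLF and from 1.07 to 1.25 on chow. The actin ratio thus separates the diets in both genotypes, and a call lost in the covariate fit cannot tell diet from RNA length. When arrays were centred on their hybridization controls instead, the median gene shifted by 0.265 on the log2 scale and 88.6% of the called genes were higher on VLF, against 49.0% in the main scaling. All directions given here are relative to that median shift.

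**Figure D1:**
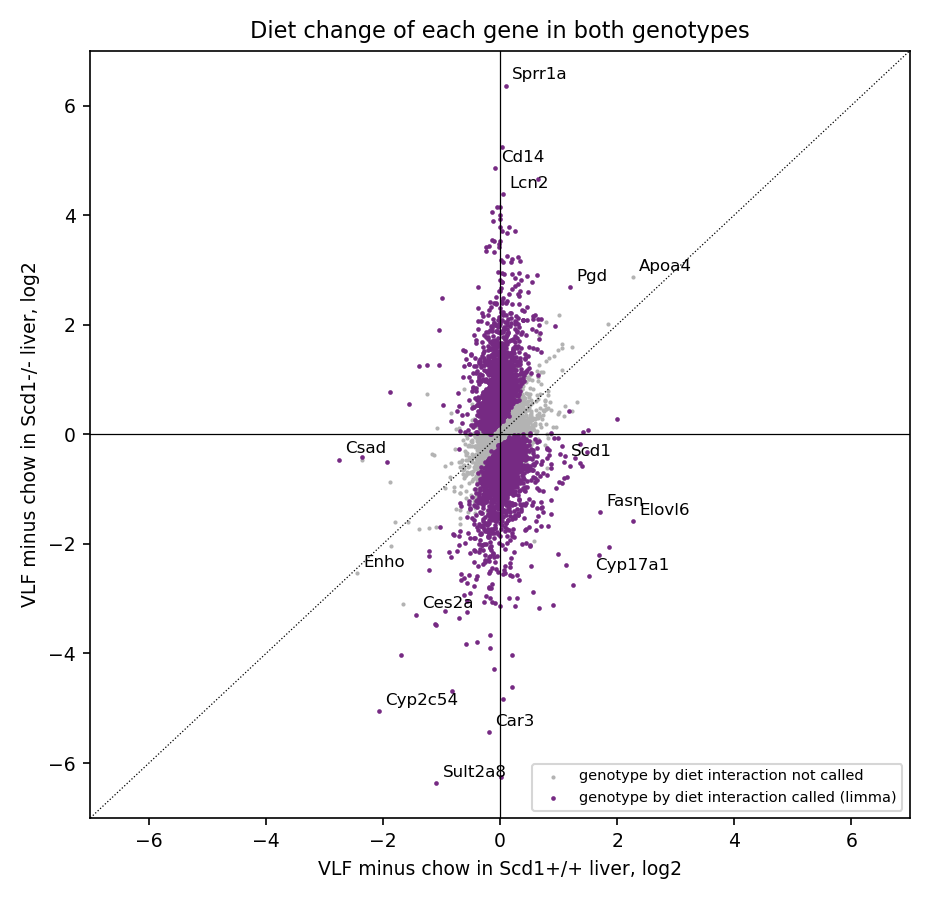
Log2 change from chow to VLF of 18193 genes in Scd1+/+ liver (horizontal axis) and in Scd1-/- liver (vertical axis), each point the mean of 5 livers against 5; purple points passed the genotype by diet interaction. The cloud is tall and narrow: changes reach 6.36 and -6.37 in Scd1-/- liver, while Elovl6 and Fasn lie to the lower right, up in Scd1+/+ and down in Scd1-/- liver.

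The largest rise was in Sprr1a, a cornified envelope protein of stratified epithelia. Sprr1a read 2836, 1476, 3933, 3165 and 4151 in the VLF livers of replicates 1 to 5, and 43.6, 38.1, 30.6, 27.5 and 40.6 in the chow livers. The chow values were near the array medians and all VLF livers lay far above them, an 82.4-fold rise (log2 change 6.36 ± 0.20, adjusted p = 1.27e-13, limma). Cbr3, a carbonyl reductase, read 1374, 942, 950.3, 1152 and 1867 on VLF and 32.7, 28.6, 42.4, 30.2 and 29 on chow. It rose 37.7-fold without overlap (log2 change 5.24 ± 0.16, adjusted p = 6.26e-14). Cd14, the lipopolysaccharide co-receptor of macrophages, read 5249, 1105, 4621, 3358 and 4984 on VLF and 92.6, 113, 168, 109 and 112 on chow, with replicate 2 the lowest of the VLF livers. It rose 29.1-fold (log2 change 4.86 ± 0.30, adjusted p = 7.03e-10). Lcn2, a secreted protein that binds bacterial iron carriers, read 9224, 7959, 8639.5, 7927 and 9224 on VLF and 200.4, 158, 6558, 249 and 227 on chow. The chow liver of replicate 3 nearly reached the VLF range and the other 4 were far below, so the mean rise was 20.9-fold with a wide error (log2 change 4.38 ± 0.72, adjusted p = 9.24e-05). Without that liver the fitted log2 change of Lcn2 was 5.38 ± 0.29 (adjusted p = 1.99e-10).

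Another 11 genes made up the 15 largest rises without overlap. Ly6d, a surface protein of stratified epithelia and early lymphoid cells, rose 25.1-fold and Lgals3, the galectin of activated macrophages, 17.7-fold. Chil3, a chitinase-like protein of macrophages, rose by 4.15 ± 0.17 on the log2 scale from chow values at the floor in 4 of 5 livers, and Gpnmb by 4.07 ± 0.18. Anxa2, a membrane-binding annexin, rose 16-fold from 272 ± 23.8 to 4421 ± 997, read from a probe set that can bind several transcripts. When such sets were dropped, the Anxa2 probe set used instead gave a log2 change of 0 with no standard error. That value is not a measured lack of change, and it cannot test the rise. Psat1, of serine synthesis, and Mmp12, the macrophage elastase, were at the floor in all 5 chow livers and rose at least 15.3-fold and at least 13.7-fold. Srxn1, the sulfiredoxin, rose 14.8-fold, and Slpi, a secreted protease inhibitor, 13.7-fold. Atf3, a stress-induced transcription factor, rose 13.1-fold, and Sult1e1, the estrogen sulfotransferase, 13.1-fold from chow values of 16, 16, 152, 20.8 and 70.5. Adjusted p ranged from 6.26e-14 for Cbr3 to 9.24e-05 for Lcn2 over these 15 genes (limma), and the 5-fold mark was passed by 72 rises in all.

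Sult2a8, a hydroxysteroid sulfotransferase, read 40.8, 43.2, 64.3, 69 and 57.7 on VLF and 4942, 4761, 3058, 4894 and 4965 on chow. All VLF livers were dim, 82.7-fold below chow on average (log2 change -6.37 ± 0.19, adjusted p = 6.26e-14, limma). Sult3a1, an amine sulfotransferase, was at the floor in all 5 VLF livers and read 1237, 887, 1059.8, 1522 and 1558 on chow, a fall of at least 76.6-fold. Car3, a carbonic anhydrase abundant in liver and fat, read 161, 91, 267, 585 and 233 on VLF and 11043, 11125, 6081, 10055 and 10640 on chow. It fell 43.2-fold (log2 change -5.43 ± 0.32, adjusted p = 3.15e-10), with the chow liver of replicate 3 the lowest of its group. Mup10, a major urinary protein, was at the floor in 3 of 5 VLF livers and read 514, 539.9, 296, 442 and 577 on chow. Dio1, the deiodinase that activates thyroid hormone, read 172, 51.5, 88.2, 68.4 and 62 on VLF and 1518, 1514, 1886, 1466 and 1456 on chow, a 19.5-fold fall. Serpina6, which carries glucocorticoids in blood, read 113, 358, 104, 281 and 214 on VLF and 4621, 5826, 3551, 4682 and 4919.7 on chow, a 24.4-fold fall. The arachidonate-metabolizing P450 enzymes Cyp2c54, Cyp2c37 and Cyp2c23 fell 33-fold, 14.1-fold and 11.1-fold, and Cyp2b13 fell 16.3-fold. Upp2, a uridine phosphorylase, fell 14.9-fold, the carboxylesterase Ces1f 13.8-fold and the methyltransferase Inmt 12.7-fold. Cyp8b1 and Cyp7a1 complete the 15 largest falls and are described with the bile acid genes. The 5-fold mark was passed by 74 falls in all.

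**Figure D2:**
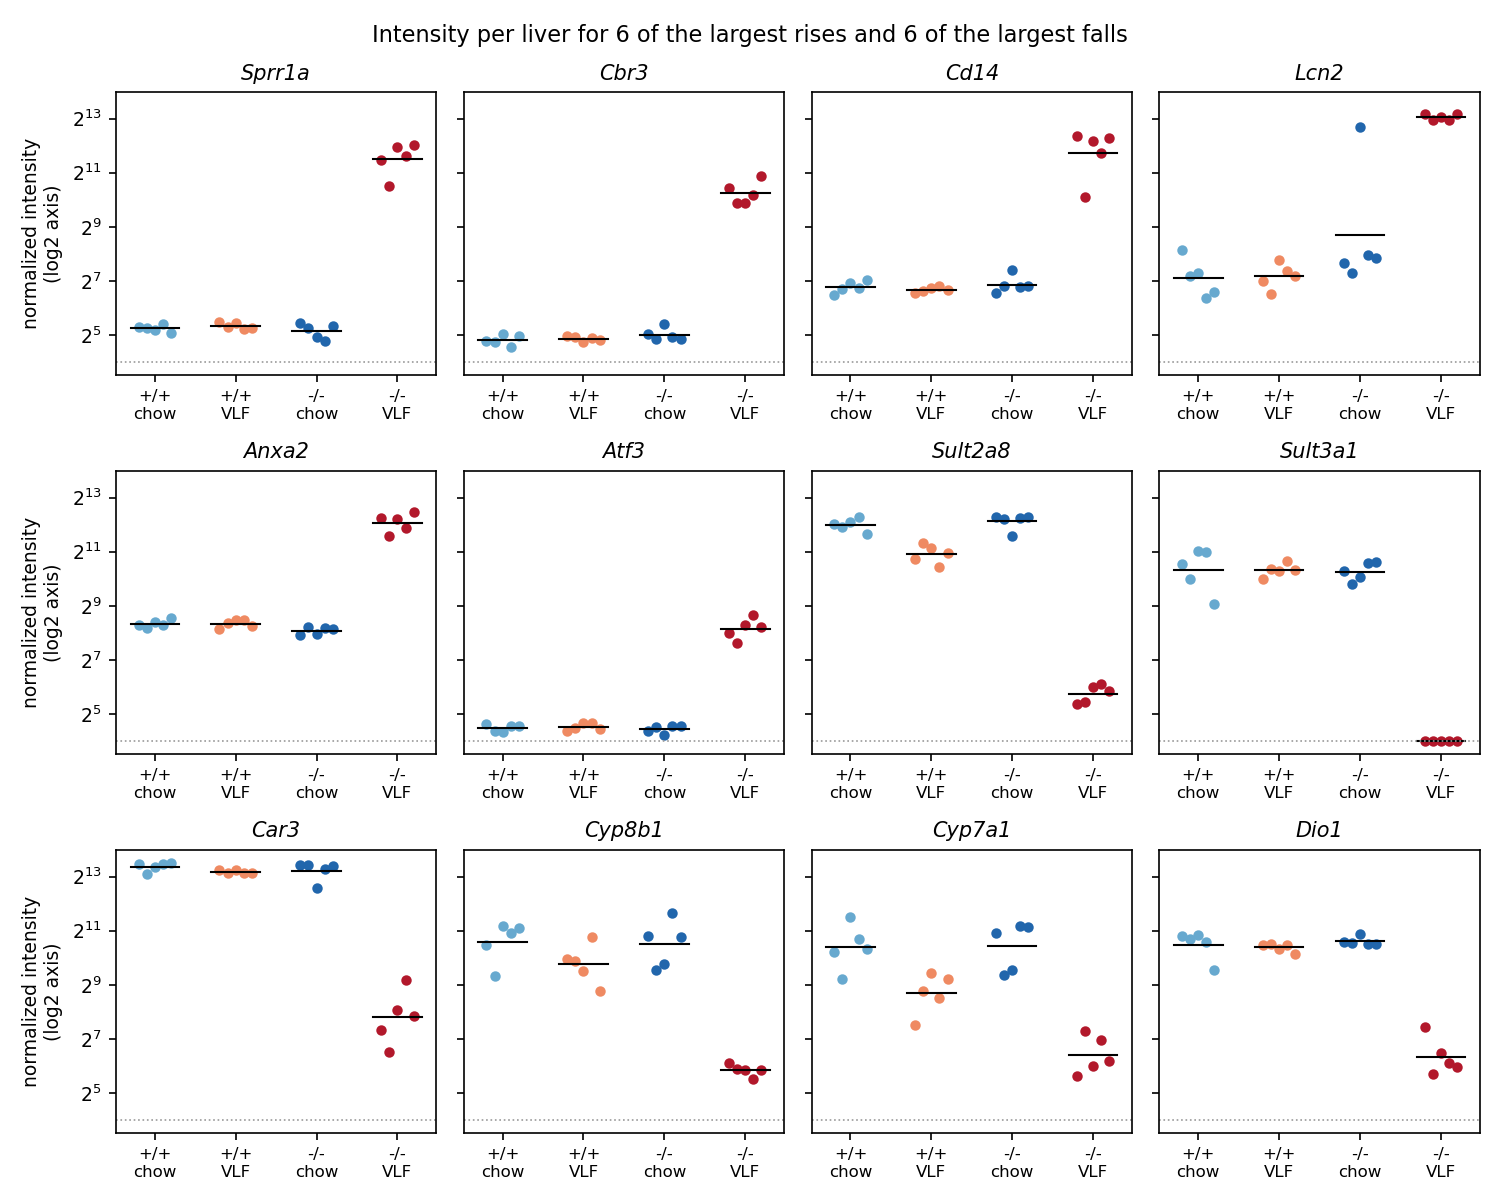
Normalized intensity on a log2 axis in each of the 20 livers for 6 of the largest rises and 6 of the largest falls; points are livers, bars are group means of log2 values and the dotted line is the floor of 16. For each of the 12 genes the 5 Scd1-/- VLF livers lie outside the range of the 5 Scd1-/- chow livers, and the Scd1-/- chow liver of replicate 3 lies high for Lcn2 at 6558.

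Genes were then read by list, against the shares of all genes that rose (17.0%) or fell (17.7%) and an all-gene median of 0. A list's median is over all its measured members. Fewer cells of a type and less RNA per cell cannot be told apart in whole liver.

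**Figure D3:**
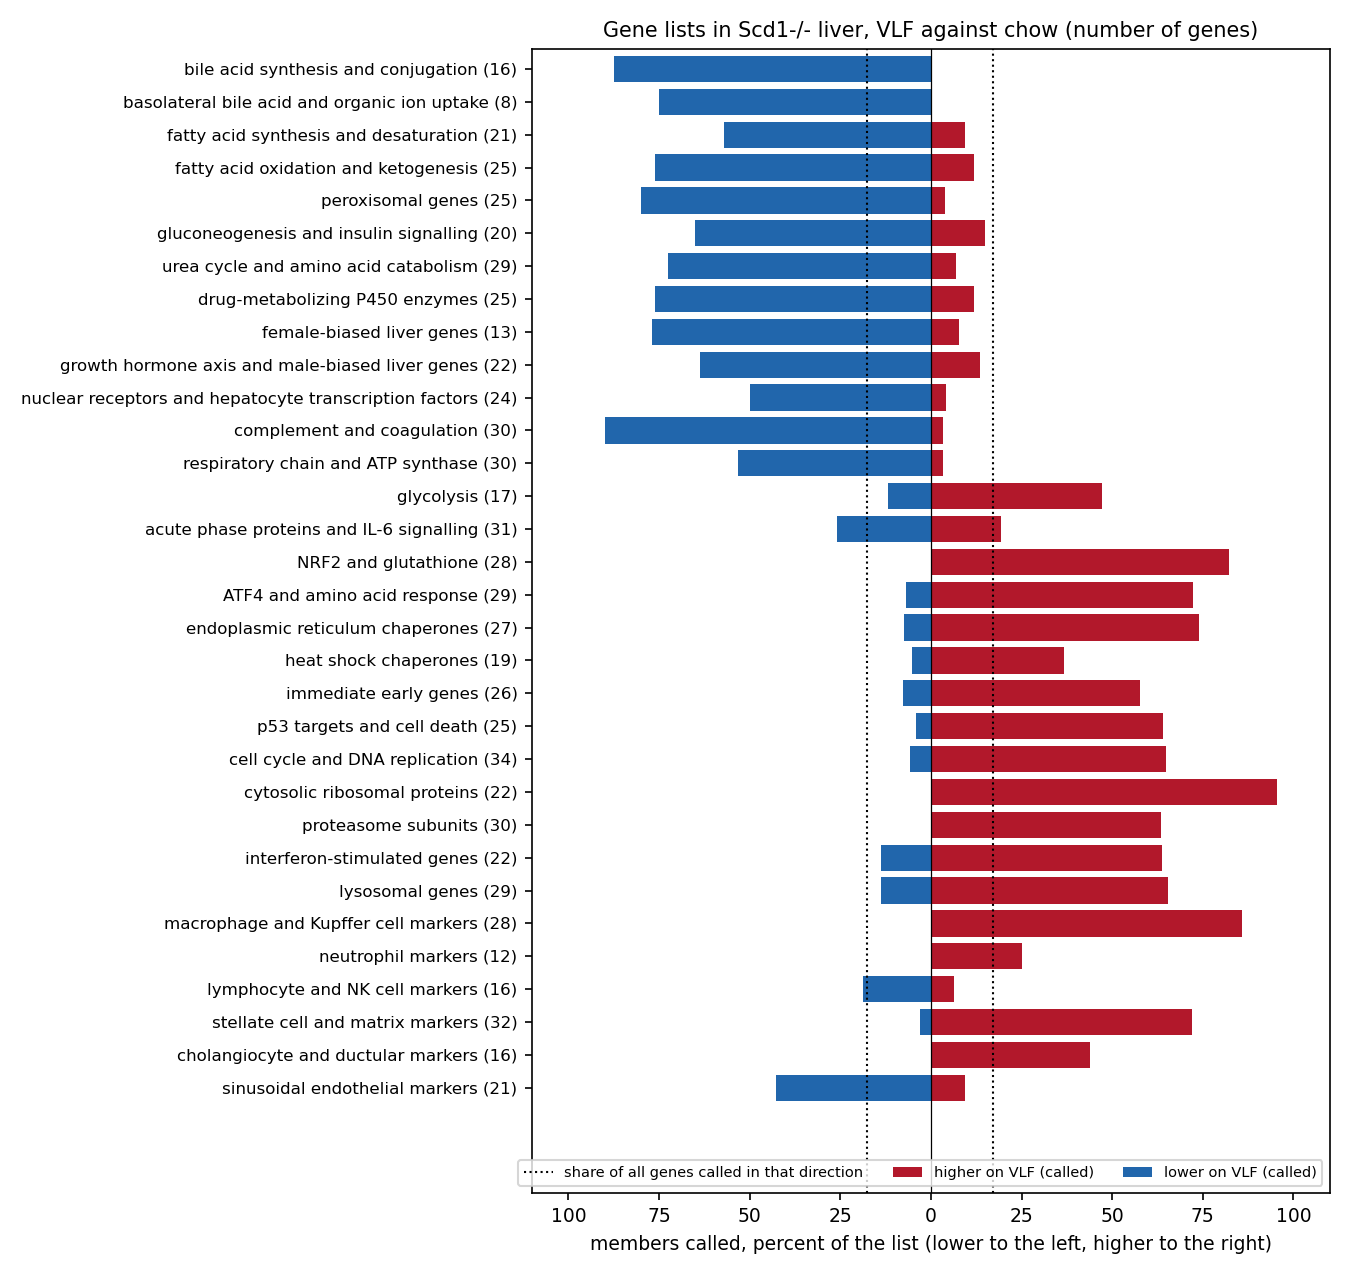
Percent of the measured members of 32 gene lists that passed the limma test in Scd1-/- liver, VLF against chow: higher to the right in red, lower to the left in blue, list size in brackets, dotted lines at the shares of all genes, 17.0% and 17.7%. Metabolic lists other than glycolysis extend mostly to the left. Glycolysis and the stress, ribosomal, macrophage and matrix lists extend mostly to the right. Hybridization-control centring turns the median of the respiratory chain, sinusoidal endothelial and lymphocyte lists from below 0 to above it.

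Most genes of bile acid synthesis were lower. Of 16 genes of synthesis and conjugation, 14 fell and 0 rose, with a median log2 change of -1.15, and 11 fell and 1 rose under hybridization-control centring. The 2 that did not pass were Cyp39a1, an oxysterol hydroxylase, and Acox2, the peroxisomal oxidase of the side chain, both named after their values were seen. Cyp7a1, the rate-limiting enzyme of the classical pathway, read 49, 157, 64.4, 123 and 72.2 on VLF and 1955, 649.7, 746, 2338 and 2248 on chow. All 5 VLF livers were lower although the chow livers spread widely, and the fall was 16.2-fold (log2 change -4.02 ± 0.48, adjusted p = 2.41e-06, limma). Cyp8b1, the sterol 12-hydroxylase needed for cholic acid, read 68.4, 59.5, 57.5, 45.5 and 57.1 on VLF and 1788, 746, 882, 3229 and 1755 on chow. It fell 25.6-fold without overlap (log2 change -4.68 ± 0.41, adjusted p = 4.95e-08). Hsd3b7, which acts after the 7-hydroxylation, fell from 4418 ± 799 to 1574 ± 79 (log2 change -1.47 ± 0.10). Slc27a5, the bile acid CoA ligase, fell from 8344 ± 328 to 2954 ± 600.2, and Scp2, the sterol carrier that cleaves the side chain, from 8558 ± 307 to 5351 ± 305. In Scd1+/+ liver 4 of the 16 fell, against 0.781% of all genes, and the genotype by diet interaction was negative for 13 and positive for 1 (12.1% of all genes each way). The 4 Scd1+/+ falls became 0 under hybridization-control centring and 0 with the 3' to 5' ratio as a covariate. The Cyp7a1 change in Scd1+/+ liver was -1.69 ± 0.48 (adjusted p = 0.107) and its difference from Scd1-/- liver -2.33 ± 0.68 (adjusted p = 0.0203).

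Uptake carriers fell and several efflux pumps rose. Of 8 basolateral uptake carriers, 6 fell and 0 rose, with a median of -1.64. Slc10a1, the sodium-dependent bile acid carrier NTCP, read 1826, 2933, 1867, 2040.3 and 1423 on VLF and 6444, 5934, 5996, 7269 and 6964 on chow. The groups did not overlap and the fall was 3.31-fold (log2 change -1.73 ± 0.16, adjusted p = 7e-08, limma). The organic anion carrier Slco1b2 fell 5.01-fold, Slco2b1 2.95-fold and Slc22a7 6.33-fold. Among 7 basolateral efflux genes 3 rose and 1 fell, and 5 rose under hybridization-control centring. Abcc4, which pumps bile acid conjugates and cyclic nucleotides back into blood, read 338, 420.4, 491, 393 and 541 on VLF and 50.5, 60.4, 68.4, 57.3 and 61.9 on chow. It rose 7.25-fold (log2 change 2.86 ± 0.15, adjusted p = 7.63e-11). Slc51b, a subunit of the organic solute transporter, rose 4.25-fold, and Abcc1, a glutathione-conjugate pump, 2.40-fold from chow values near the array medians, a call lost with a floor of 64. Abcc6, a basolateral ATP-binding cassette carrier, fell 2.97-fold. Of 11 canalicular genes 3 rose and 4 fell, 6 and 2 under hybridization-control centring. Abcb11, the bile salt export pump, read 999, 1997, 843, 1423 and 972 on VLF and 2198, 2260.1, 2292, 2457 and 2689 on chow. Replicate 2 was the highest of the VLF livers, close to the chow range, and the mean fall was 2.00-fold (log2 change -1.0 ± 0.17, adjusted p = 0.000103). The conjugate pump Abcc2 rose 2.27-fold, the drug pump Abcb1a 4.27-fold, and the cation extruder Slc47a1 fell 2.39-fold.

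**Figure D4:**
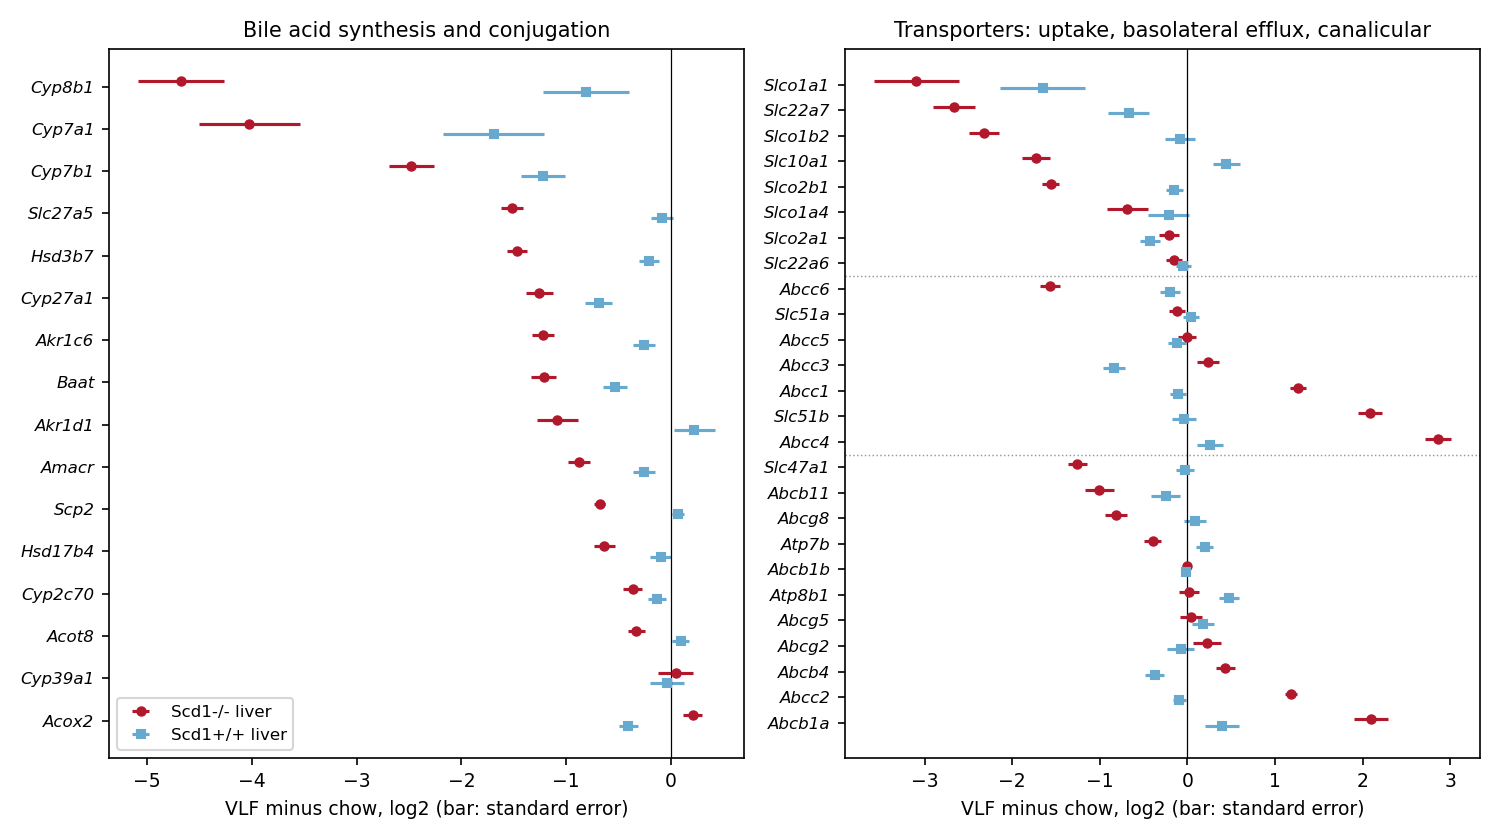
Log2 change from chow to VLF with its standard error for each measured gene of bile acid synthesis (left) and for uptake, basolateral efflux and canalicular transporters (right, from top to bottom, separated by dotted lines), in Scd1-/- liver (red circles) and Scd1+/+ liver (blue squares), n = 5 against 5 livers each. Of the 16 synthesis genes 14 fell in Scd1-/- liver; Abcc4, Slc51b and Abcb1a stand to the right at 2.86, 2.09 and 2.09.

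In Scd1-/- liver 12 of 21 genes of fatty acid synthesis and desaturation fell and 2 rose (median -0.78). In Scd1+/+ liver 7 of these genes rose and 0 fell (median 0.96). With the 3' to 5' ratio as a covariate 0 rose and 0 fell in Scd1+/+ liver (median 0.57), while 2 rose and 12 fell in Scd1-/- liver. The interaction was negative for 17 of the 21 and positive for 2. Elovl6, which lengthens palmitate to stearate, read 172, 152, 185, 171 and 175 on VLF and 681, 625, 323, 547 and 459 on chow. It fell 2.99-fold in Scd1-/- liver (log2 change -1.58 ± 0.29, adjusted p = 0.000302, limma) and rose in Scd1+/+ liver from 525 ± 147 to 2742 ± 1464 (log2 change 2.27 ± 0.29, adjusted p = 0.000879), a rise of 1.67 ± 0.46 and not called with the covariate (adjusted p = 0.589). Fasn, the fatty acid synthase, read 323, 385, 384, 475 and 409 on VLF and 1661, 1052, 925, 930.1 and 851 on chow, again without overlap. Its fall was 2.68-fold (log2 change -1.42 ± 0.26, adjusted p = 0.00033), against a rise of 1.71 ± 0.26 in Scd1+/+ liver that was not called with the covariate (adjusted p = 0.801). Thrsp, a lipogenic cofactor, read 475, 1149.7, 527, 512 and 552 on VLF, with replicate 2 the highest, and 4761, 4026, 3321, 1385 and 1889 on chow, a 4.60-fold fall without overlap. The transcription factor Srebf1, which drives these enzymes, fell by 1.24 on the log2 scale, and Mlxipl, the carbohydrate-response factor, from 691 ± 161 to 248 ± 44.7. Elovl3, an elongase of very long chains, fell 4.43-fold and Elovl1 rose 1.96-fold. Acaca, the acetyl-CoA carboxylase, was 399 ± 64.8 on VLF and 605 ± 133 on chow and did not pass the test (adjusted p = 0.0761). It passed when only brighter probe sets were tested (adjusted p = 0.0336) or only the Scd1-/- groups were fitted (0.0156). Pklr, the liver pyruvate kinase, did not pass in Scd1-/- liver (-0.19 ± 0.21, adjusted p = 0.695) and rose in Scd1+/+ liver (1.36 ± 0.21, adjusted p = 0.00323), with an interaction of -1.55 ± 0.30 (adjusted p = 0.000855); the Scd1+/+ rise was not called with the covariate (0.856). Tecr, the last reductase of fatty acid elongation, also fell in Scd1-/- and rose in Scd1+/+ liver (-0.56 ± 0.06 and 0.46 ± 0.06). Neither its fall nor its rise was called under hybridization-control centring (limma, adjusted p = 0.091 and 0.13). The rise was not called with the covariate either (adjusted p = 0.753).

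Other desaturase genes and lipid handling differed from synthesis. Scd2, the desaturase of brain and of immature liver, read 314, 228, 171, 134 and 218 on VLF and 24.8, 45.3, 72.7, 53.1 and 43.6 on chow. It rose 4.52-fold without overlap (log2 change 2.18 ± 0.32, adjusted p = 2.43e-05, limma), and Scd3 was 25 ± 3.35 and 27.8 ± 1.45 and did not pass (adjusted p = 0.329). Among 26 genes of lipid droplets, lipases and fatty acid uptake 10 rose and 10 fell, with 5 falls under hybridization-control centring. Lpl, the lipoprotein lipase, which is low in adult hepatocytes, read 2248, 3603, 3217, 2155 and 2408 on VLF and 192, 229.8, 236, 270.3 and 335 on chow, a 10.7-fold rise. The very long chain acyl-CoA synthetase Slc27a2 fell 2.94-fold. For triglyceride and phospholipid synthesis 6 rose and 6 fell of 24, 13 and 2 under hybridization-control centring, and 3 rose without the chow liver of replicate 4. Dgat2, of triglyceride synthesis, fell 2.97-fold, Chpt1, which makes phosphatidylcholine, 2.11-fold, and the phosphatidate phosphatase Lpin3 rose 1.75-fold. Of 20 sphingolipid enzymes 6 rose and 2 fell, 13 and 0 under hybridization-control centring. Sptlc2, a subunit of serine palmitoyltransferase, rose 3.15-fold and the acid ceramidase Asah1 1.65-fold. Apoa4, an apolipoprotein, read 8681, 7978, 8140.4, 7772 and 7217 on VLF and 1075, 849, 2093, 873 and 914 on chow. It rose 7.30-fold, with the chow liver of replicate 3 the highest of its group, and rose in Scd1+/+ liver too (2.27 ± 0.22, adjusted p = 7.32e-05; 0.214 with the 3' to 5' ratio as a covariate). Apoc2, the lipase cofactor, rose 2.84-fold and the cholesterol exporter of lysosomes Npc1 fell 1.78-fold, in a list of lipoprotein and sterol transport where 6 rose and 8 fell of 23 (11 and 2 under hybridization-control centring). In cholesterol synthesis and uptake 1 rose and 8 fell of 21, with a median of -0.24 that became 0.17, with 4 rises and 5 falls, under hybridization-control centring. Stard4, a sterol carrier, fell 2.87-fold, the sterol desaturase Sc5d 2.46-fold and the isomerase Ebp 1.80-fold.

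Most genes of fatty acid oxidation were lower, mitochondrial and peroxisomal alike. Of 25 genes of mitochondrial oxidation and ketogenesis 19 fell and 3 rose (median -0.58), with 8 falls under hybridization-control centring. Acat1, the mitochondrial thiolase of ketone bodies, read 502, 583, 399, 593 and 505 on VLF and 3424, 2872, 2366, 3203 and 2765 on chow. All VLF livers lay far below chow, a 5.68-fold fall (log2 change -2.51 ± 0.13, adjusted p = 8.71e-11, limma). Echs1, the enoyl-CoA hydratase, fell 2.05-fold and the electron transfer flavoprotein Etfa 1.72-fold. Ppara, the receptor that drives this program, read 1097, 842, 1550.2, 1071 and 878 on VLF and 3025, 2613, 2457, 2842 and 2136 on chow, a 2.45-fold fall without overlap. Cpt1a fell 1.47-fold, a call lost under hybridization-control centring. Pdk4, which spares glucose from oxidation, went the other way and read 709.8, 188, 424, 176 and 188 on VLF and 20.7, 31, 65.9, 30.6 and 19.2 on chow. Acot2, a mitochondrial thioesterase, rose 2.17-fold and the coactivator Ppargc1a 2.54-fold. Of 25 peroxisomal genes 20 fell and 1 rose (median -0.62; 9 falls under hybridization-control centring). Hacl1, of alpha-oxidation, fell 5.45-fold, the enoyl-CoA reductase Pecr 4.17-fold and the phytanate hydroxylase Phyh 2.27-fold, while the bifunctional enzyme Ehhadh rose 1.38-fold, a call lost with the 3' to 5' ratio as a covariate (adjusted p = 0.0889). In the respiratory chain 16 of 30 fell and 1 rose, with a median of -0.18 that became 0.16, with 6 rises and 3 falls, under hybridization-control centring. Ndufb10, a complex I subunit, was 862 ± 62.3 on VLF and 1473 ± 109.6 on chow and Ndufa9 1020.1 ± 31 and 1591 ± 68.8, both called.

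Genes of gluconeogenesis and amino acid breakdown were mostly lower. Of 20 genes of gluconeogenesis and insulin signalling 13 fell and 3 rose (median -0.53; 6 falls under hybridization-control centring). The gluconeogenic bisphosphatase Fbp1 fell 1.78-fold, the insulin receptor Insr 2.13-fold and the liver glycogen synthase Gys2 3.33-fold. Igfbp1, which binds insulin-like growth factors and is repressed by insulin, read 10214, 6081, 9936, 7712 and 9704 on VLF and 1762, 1822, 6794, 1085 and 1218 on chow. The chow liver of replicate 3 overlapped the VLF range, and the mean rise was 4.37-fold (log2 change 2.13 ± 0.47, adjusted p = 0.00158, limma). G6pc, the glucose-6-phosphatase, read 1923, 1251, 1140.2, 1848 and 2434 on VLF and 1092, 1975, 2354, 1235 and 1271 on chow, fully overlapping (adjusted p = 0.967). Pck1 fell 1.53-fold, a call lost under hybridization-control centring (adjusted p = 0.122) and with the 3' to 5' ratio as a covariate (0.114). In glycolysis 8 of 17 rose and 2 fell, 9 and 0 under hybridization-control centring. Pkm, the pyruvate kinase of muscle and dividing cells, rose 3.25-fold, Aldoa 2.49-fold and Tpi1 1.45-fold. In the pentose phosphate pathway 3 rose and 3 fell of 8, and no gene fell under hybridization-control centring, where the median went from -0.10 to 0.32. Pgd, which makes NADPH, read 3379, 2037, 2842, 2761 and 3116 on VLF and 479, 408, 531, 368 and 396 on chow, a 6.44-fold rise, and rose less in Scd1+/+ liver (1.20 ± 0.20; interaction 1.49 ± 0.28, adjusted p = 0.000758). Tkt, the transketolase, rose 2.12-fold. Of 29 genes of the urea cycle and amino acid breakdown 21 fell and 2 rose (median -0.82), and 6 rose under hybridization-control centring. Otc, of the urea cycle, fell 3.07-fold, the tyrosine dioxygenase Hpd 2.58-fold and the kynureninase Kynu 3.70-fold. Of 16 sulphur amino acid and taurine genes 9 fell and 3 rose (5 falls under hybridization-control centring). The sulfite oxidase Suox fell 4.11-fold, the methionine adenosyltransferase Mat1a 1.66-fold and the sulfate activator Papss2 2.43-fold, and the taurine carrier Slc6a6 rose 2.44-fold. Csad, which makes hypotaurine, read 87.6, 236, 116, 144 and 129.6 on VLF and 326, 155, 133, 269 and 122 on chow. These overlapped (adjusted p = 0.406), whereas Csad fell by 2.75 in Scd1+/+ liver, an interaction of 2.28 ± 0.47 (adjusted p = 0.00165).

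Genes for enzymes of drug and steroid metabolism were mostly lower. Of 25 drug-metabolizing P450 genes 19 fell and 3 rose (median -0.87). Cyp2b9, a female-typical P450, fell 8.83-fold, the epoxygenases Cyp2j5 4.88-fold and Cyp2c50 9.32-fold, while Cyp2d9, a male-typical P450, rose 3.73-fold. Cyp1b1 rose 1.38-fold from values near the array medians and was not called with a floor of 64 or over the mean of its probe sets. In P450 family 4, which oxidises the ends of fatty acids, 6 fell and 3 rose of 10. Cyp4f14 fell 6.54-fold, Cyp4f15 4.49-fold and Cyp4f13 2.00-fold, and Cyp4f16 rose 1.73-fold. Of 10 sulfotransferases 5 fell and 1 rose, the rise being Sult1e1, and Sult5a1 fell 4.36-fold. Of 16 glucuronosyltransferases and glutathione transferases outside the alpha, mu and pi classes 10 fell and 3 rose, with 6 falls under hybridization-control centring. Ugt3a1 fell 5.28-fold, Ugt2b1 3.22-fold and Gstt1 2.10-fold, and Ugdh, which makes the glucuronic acid donor, rose 2.89-fold and Ugt2b35 2.05-fold.

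Of 13 female-biased genes 10 fell and 1 rose, with a median of -2.58. Besides Sult3a1 and Cyp2b9, the organic anion carrier Slc22a26 fell 9.45-fold. Cyp17a1, of steroid synthesis, read 674, 72.2, 207, 374 and 156 on VLF and 1183, 1052, 1249, 1435 and 2116 on chow, a 6.04-fold fall with replicate 1 the highest VLF liver. Prom1, the gene that rose, read 605, 1029, 509, 566 and 579 on VLF and 101, 96.5, 384, 94.5 and 154 on chow, with the chow liver of replicate 3 above its group. Of 22 genes of the growth hormone axis and male-biased expression 14 fell and 3 rose (median -1.56). Ghr, the growth hormone receptor, read 570.4, 707, 694, 842 and 644 on VLF and 3807, 4087, 3012, 3924 and 4158 on chow. It fell 5.50-fold (log2 change -2.46 ± 0.10, adjusted p = 2.07e-12, limma). Igf1, the growth factor it controls, read 1579, 1759.9, 1695, 2178 and 1555 on VLF and 6174, 5146, 4481, 6525 and 6028 on chow, a 3.23-fold fall without overlap. Mup3, a major urinary protein, fell 6.96-fold, and Gstp1, a male-biased glutathione transferase, rose 2.18-fold. In Scd1+/+ liver 0 female-biased and 4 male-biased or growth hormone genes fell. These counts were 0 and 1 under hybridization-control centring, and 0 and 0 with the 3' to 5' ratio as a covariate.

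Of 24 nuclear receptors and hepatocyte factors 12 fell and 1 rose (median -0.46; 7 falls and 5 rises under hybridization-control centring). Nr1h4, the bile acid receptor FXR, fell 2.83-fold from 732 ± 68.4 to 259 ± 24.9. Nr1i3, the xenobiotic receptor CAR, fell 4.06-fold and Cebpa 3.29-fold. Of 14 abundant secreted proteins 8 fell and 1 rose, with a median of -0.19 that became 0.14 under hybridization-control centring. The single rise was Alb at 1.05-fold, whose quantile-normalized value had no spread within a group and whose call was lost when any of the 10 livers was left out. Itih1, of hyaluronan binding, fell 3.71-fold and Fetub 3.51-fold. Complement and coagulation genes fell in 27 of 30 cases and rose in 1 (median -0.89), with 18 falls under hybridization-control centring. The coagulation factor F10 fell 2.19-fold, Masp2 of the lectin pathway 2.83-fold and C1ra 2.18-fold. The gene that rose was C1qa (2.19-fold), which macrophages make. Among 31 acute phase and IL-6 signalling genes 6 rose and 8 fell, 11 and 5 under hybridization-control centring, and 16 rose without the chow liver of replicate 3. Cp, the copper-carrying ceruloplasmin, read 14745, 13227, 18123, 13772 and 15342 on VLF and 7959, 7664, 9012, 8389.6 and 8846 on chow, a 1.79-fold rise. Crp fell 2.66-fold and Il1rap, the IL-1 receptor accessory protein, 6.62-fold.

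Hormone-like products and metal handling gave mixed counts. Of 22 hepatokines 4 rose and 9 fell, with a median of -0.21 that became 0.22 under hybridization-control centring. Fgf1, a fibroblast growth factor, fell 5.95-fold, and follistatin (Fst) rose 6.50-fold. Fgf21, the fasting and stress hormone, read 142, 58.5, 123, 153 and 111 on VLF and 61.7, 56.6, 78.1, 46.5 and 53 on chow. The groups overlapped through replicate 2 of VLF, and the 1.91-fold rise (adjusted p = 0.00166, limma) was not called with the 3' to 5' ratio as a covariate (0.0881). Of 18 genes of glucocorticoid availability and response 6 rose and 5 fell, with 9 and 3 under hybridization-control centring. Hsd11b1, which regenerates active glucocorticoid, fell 2.30-fold, and Ddit4, induced by glucocorticoid and by stress, rose 4.13-fold. Among 15 carbonic anhydrases 5 fell and 1 rose, with a median of -0.20 that became 0.19 under hybridization-control centring; the mitochondrial Car5a fell 8.48-fold and Car8 2.07-fold. Of 22 iron and haem genes 9 rose and 8 fell (4 falls under hybridization-control centring). The iron importer Slc11a2 rose 2.73-fold, the haem oxygenase Hmox1 3.41-fold, and the haem-binding Hebp1 fell 2.62-fold. Of 9 metallothionein and zinc transport genes 1 rose and 3 fell, with a median of -0.02 that became 0.34 under hybridization-control centring; the zinc importer Slc39a4 rose 3.52-fold and Slc39a8 fell 1.95-fold.

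Genes of stress programs were mostly higher. NRF2 is a transcription factor that oxidants and electrophiles release from its inhibitor to raise glutathione and detoxification genes. Of 28 of its targets and glutathione genes 23 rose and 0 fell, with a median of 1.19 and the interaction positive for 22 and negative for 1. Srxn1, which repairs peroxiredoxins, read 2224, 1267, 2351, 2511 and 2860.1 on VLF and 143, 124, 169, 149 and 151 on chow. It rose 14.8-fold without overlap (log2 change 3.89 ± 0.18, adjusted p = 1.44e-11, limma). The glutathione reductase Gsr rose 2.63-fold. Ephx1, the microsomal epoxide hydrolase, rose 1.45-fold here and fell in Scd1+/+ liver (-0.97 ± 0.11; interaction 1.51 ± 0.16, adjusted p = 1.83e-06). In Scd1+/+ liver 2 of the 28 rose and 4 fell. These counts were 1 and 1 under hybridization-control centring, and 0 and 0 with the 3' to 5' ratio as a covariate.

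ATF4 is translated when amino acids run short or the endoplasmic reticulum is stressed, and raises genes of amino acid supply. Of 29 genes of this response 21 rose and 2 fell (median 0.84), against 0 and 0 in Scd1+/+ liver. Atf3 read 253, 197, 314, 404 and 300.4 on VLF and 20.4, 23.1, 18.8, 23.2 and 23.7 on chow, all chow livers being close to the floor. Its rise was by 3.72 ± 0.14 on the log2 scale (adjusted p = 8.34e-13, limma). Psat1 read 239, 167, 232, 271 and 352 on VLF and was at the floor in every chow liver. Ddit3, the stress factor CHOP, read 661, 894, 1454, 2537 and 2558 on VLF and 119, 172, 132, 149 and 127 on chow, a 10.2-fold rise. Nupr1, a stress-induced chromatin protein, rose 11.1-fold and the glycyl-tRNA synthetase Gars 3.12-fold. The 2 that fell were the mitochondrial serine enzyme Shmt2 (1.77-fold) and Atf5 (1.67-fold), the latter not called under hybridization-control centring (adjusted p = 0.185). Of 27 endoplasmic reticulum chaperones and folding factors 20 rose and 2 fell (median 0.60). Derl3, which retrieves misfolded proteins, rose 4.52-fold, the cochaperone Dnajc3 2.21-fold and the translocon subunit Sec61b 1.56-fold. Derl2 and the stress sensor Ern1 fell 1.34-fold and 1.76-fold, and neither was called under hybridization-control centring.

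The promoters of these lists were searched for the letters that ATF4 and the endoplasmic reticulum stress factors are known to bind. In the 250 bases before the gene start in RefSeq (GRCm38.p6, both strands, 14452 measured genes with a promoter), the C/EBP-ATF response element TGATGCAA was present in 6 of 25 genes of the ATF4 list and in 0.740% of all genes. The endoplasmic reticulum stress response element, CCAAT and CCACG with 9 bases between them, was present in 9 of 23 genes of the chaperone list and in 0.131% of all genes. Such a match is a description of the sequence and not a bound site. The printed sequences run 5′ to 3′ on the strand of the gene, with the element or its reverse complement in capitals; the first 6 are all the matches in the ATF4 list, and their log2 changes follow.
Atf3, chr1:191183400-191183479, minus strand: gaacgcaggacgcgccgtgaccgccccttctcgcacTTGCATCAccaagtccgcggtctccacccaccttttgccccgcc
Nupr1, chr7:126625537-126625616, minus strand: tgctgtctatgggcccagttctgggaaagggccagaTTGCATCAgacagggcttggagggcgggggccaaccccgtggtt
Slc7a11, chr3:50443617-50443715, minus strand: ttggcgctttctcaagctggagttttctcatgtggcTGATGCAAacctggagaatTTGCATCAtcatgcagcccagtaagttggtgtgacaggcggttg
Chac1, chr2:119351013-119351092, plus strand: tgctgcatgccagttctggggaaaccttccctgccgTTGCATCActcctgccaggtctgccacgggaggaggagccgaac
Aars, chr8:111033694-111033773, plus strand: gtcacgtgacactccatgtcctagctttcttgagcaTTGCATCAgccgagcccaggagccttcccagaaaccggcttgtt
Vldlr, chr19:27216784-27216863, plus strand: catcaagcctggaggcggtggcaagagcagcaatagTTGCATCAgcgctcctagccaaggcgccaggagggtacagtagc
Atf3, Nupr1, the cystine carrier Slc7a11 and the glutathione-degrading Chac1 rose by 3.72 ± 0.14, 3.47 ± 0.23, 1.96 ± 0.23 and 0.81 ± 0.25. The alanyl-tRNA synthetase Aars (0.24 ± 0.12, adjusted p = 0.167) and the lipoprotein receptor Vldlr (0.08 ± 0.29, adjusted p = 1) carry the same letters and did not pass the test. Of the 6 list members with the element 4 rose, and 17 of 25 rose with or without it. Over all genes with a promoter, 21 of 107 with the element rose, and 2513 of 14452 with or without it. Slc7a11 carries the element on both strands within the printed stretch.

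For the chaperone list, the stretch of the main chaperone of the endoplasmic reticulum, Hspa5, is shown beside the largest rises with the element and the member with the element that did not change by the test.
Hspa5, chr2:34771994-34772074, plus strand: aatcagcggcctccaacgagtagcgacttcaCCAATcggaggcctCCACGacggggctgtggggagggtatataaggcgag
Creld2, chr15:88819489-88819569, plus strand: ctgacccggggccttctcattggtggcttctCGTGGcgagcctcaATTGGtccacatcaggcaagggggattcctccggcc
Derl3, chr10:75893211-75893291, plus strand: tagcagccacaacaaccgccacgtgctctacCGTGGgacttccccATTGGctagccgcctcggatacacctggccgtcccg
Dnajc3, chr14:118937796-118937876, plus strand: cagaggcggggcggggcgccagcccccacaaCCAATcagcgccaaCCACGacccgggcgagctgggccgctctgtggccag
Canx, chr11:50325769-50325849, minus strand: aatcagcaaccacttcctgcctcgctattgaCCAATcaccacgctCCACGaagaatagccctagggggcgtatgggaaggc
Hspa5, Creld2, Derl3 and Dnajc3 rose by 1.28 ± 0.16, 2.78 ± 0.29, 2.18 ± 0.11 and 1.14 ± 0.12, and Canx, the lectin calnexin, did not pass the test (adjusted p = 1). Of the 9 list members with the element 8 rose, and 18 of 23 rose with or without it. Hspa5, Creld2, Slc7a11, Chac1, Aars, Vldlr and Canx were named because of their promoters, after their values were seen. In all, 11 motifs were searched in 6 lists. The antioxidant response element TGACNNNGC was found in 5 of 24 genes of the NRF2 list (20.8%), 6 of 25 of the ATF4 list (24.0%), 5 of 23 of the chaperone list (21.7%) and 13.5% of all genes. In the NRF2 list its longer form with a final A was in 1 gene (2.75% of all genes), and the AP-1 site TGACTCA, which it can overlap, in 4 (4.73%). The other motifs were TGATGNAAT, found in 3 of the ATF4 list (0.650% of all genes), the heat shock element of GAA, TTC and GAA with 2 bases between each, in 2 of 15 heat shock genes (0.484%), and ACGTG, in 10 of 18 clock genes (22.5%). TGACGTCA, TTATGCAA and TTANGTAA were in 2.50%, 0.761% and 1.90% of all genes and in 1, 0 and 0 genes of the ATF4 list.

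Heat shock and growth-related lists rose in part. Of 19 cytosolic and mitochondrial heat shock chaperones 7 rose and 1 fell, 13 and 0 under hybridization-control centring, and 5 fell without the VLF liver of replicate 4. Hspa1b, an inducible HSP70, read 1068, 1163, 1575, 2075 and 970.1 on VLF and 162, 211, 159.5, 195 and 159.5 on chow, a 7.47-fold rise without overlap. Its near-identical copy Hspa1a was at the floor in all chow livers and rose at least 11.6-fold, and each probe set may take signal from the other copy. The cochaperone Bag3 rose 1.82-fold. Among 26 immediate early genes 15 rose and 2 fell (median 0.65), 19 and 0 under hybridization-control centring, with 4 falls without both livers that stood apart. The fall of Zfp36, an RNA decay factor (-0.50 ± 0.18), was not called in 6 of the 10 fits that left out 1 Scd1-/- liver. Klf6 rose 4.46-fold, Klf4 5.42-fold and Myc 4.18-fold. Of 25 p53 targets and cell death genes 16 rose and 1 fell (median 0.63). Cdkn1a, the p21 cell cycle inhibitor, read 1030.4, 864, 1308, 774 and 1104 on VLF and 85.9, 72.4, 211, 59.3 and 63.7 on chow. It rose 11.5-fold, with the chow liver of replicate 3 the highest of its group. Tnfrsf12a, the TWEAK receptor, rose 10.7-fold and the polo-like kinase Plk2 2.09-fold, while the death receptor Fas fell 1.35-fold, a call lost under hybridization-control centring.

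Cell cycle genes rose beside that inhibitor. Of 34 cell cycle and replication genes 22 rose and 2 fell (median 0.71). Birc5, of the dividing spindle, read 225, 165, 104, 129.5 and 105 on VLF and 16.3, 16, 19.4, 19.4 and 20.2 on chow. All chow livers were at or near the floor, and the rise was 7.66-fold (log2 change 2.94 ± 0.25, adjusted p = 3.2e-08, limma). The spindle protein Nusap1 rose 3.50-fold, a call lost with a floor of 64, and the replication clamp Pcna 1.66-fold. Tk1, a thymidine kinase, and the cyclin Ccnd2 fell 2.10-fold and 1.37-fold, and the fall of Ccnd2 was not called under hybridization-control centring. Ribosomal protein genes moved by small and even steps. Of 22 cytosolic ribosomal proteins 21 rose and 0 fell, with a median of 0.43 and no change of 2-fold. Rpl6 rose 1.59-fold, Rpl19 1.46-fold and Rpl27 1.43-fold. Of 30 proteasome subunits 19 rose and 0 fell (median 0.26), 29 rose under hybridization-control centring, and 12 rose with the 3' to 5' ratio as a covariate. Psmd8, of the regulatory particle, rose 3.05-fold, the catalytic subunit Psmb5 1.44-fold and Psmb4 1.34-fold.

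Macrophage genes rose. Of 28 macrophage and Kupffer cell markers 24 rose and 0 fell, with a median of 1.36 and 0 rises in Scd1+/+ liver. Their summed intensity was 35817 to 49080 in the VLF livers and 12668 to 18534 in the chow livers. Mmp12 read 297, 327, 194, 153 and 177 on VLF and was at the floor in all 5 chow livers. Lgals3 read 3328, 5371, 3135, 2816 and 4135 on VLF and 178, 182, 322, 195 and 183 on chow, where replicate 3 was the highest. The scavenger receptor Marco rose 5.63-fold. The defining markers Adgre1 and Clec4f, of all macrophages and of Kupffer cells, were 398 ± 78.5 against 271 ± 26.1 and 1287 ± 428 against 953 ± 53.3, of which Adgre1 passed the test (adjusted p = 0.0144) and Clec4f did not (0.163); both were named after their values were seen. Lysosomal genes, abundant in these cells, rose in 19 of 29 cases and fell in 4 (median 0.47), with 1 fall under hybridization-control centring. The cathepsins Ctsd and Ctss rose 2.54-fold and 3.26-fold, and the protease Lgmn 3.22-fold. The part of macrophage number in the lysosomal, complement and chemokine counts was not tested. Of 26 chemokines and receptors 11 rose and 1 fell, 16 and 1 under hybridization-control centring, with 4 falls without both livers that stood apart. Ccl6 rose 5.65-fold, Cxcl2 at least 3.58-fold from chow values all at the floor (not called with a floor of 64), and Cxcl12, a constitutive chemokine, fell 2.22-fold.

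Other immune markers moved less. Of 12 neutrophil markers 3 rose and 0 fell, 10 rose under hybridization-control centring, and the summed intensity was 1294 to 5424 on VLF and 755 to 1599.9 on chow. S100a8, a calcium-binding protein of neutrophils and monocytes, read 2933, 774, 859, 404 and 728 on VLF and 148, 86.6, 579, 116 and 64.7 on chow. The groups overlapped through the chow liver of replicate 3, and the rise was 6.34-fold (adjusted p = 0.000432, limma). Its partner S100a9 rose 3.63-fold, not called with the 3' to 5' ratio as a covariate (adjusted p = 0.0746). Of 16 lymphocyte and NK cell markers 1 rose and 3 fell, with a median of -0.06 that became 0.20 under hybridization-control centring, and summed intensities of 744 to 1015 and 841 to 909. Of 22 interferon-stimulated genes 14 rose and 3 fell (median 0.81). These counts were 16 and 0 under hybridization-control centring, 11 and 0 with the 3' to 5' ratio as a covariate, and 10 and 3 without both livers that stood apart. Rsad2, the antiviral protein viperin, read 626, 3486, 1194, 1229.6 and 2573 on VLF and 196, 183, 169, 232 and 233 on chow. It rose 7.58-fold, the VLF livers differing widely among themselves. Oasl1 rose 6.08-fold and Oas1a 2.74-fold. Of 16 antigen presentation genes 8 fell and 1 rose, with a median of -0.17 that became 0.20, with 1 fall and 6 rises, under hybridization-control centring. The class II chains H2-Eb1 and H2-Ab1 fell 1.67-fold and 1.62-fold, the latter not called under hybridization-control centring, and the class I chain H2-D1 rose 1.34-fold.

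Of 32 stellate cell and matrix markers 23 rose and 1 fell (median 0.68), and the summed intensity was 14958 to 18810 on VLF and 11685 to 14360 on chow. Timp1, an inhibitor of matrix proteases, rose 3.24-fold, the collagen Col1a2 2.16-fold and decorin (Dcn) 1.96-fold. Of 16 cholangiocyte and ductular markers 7 rose and 0 fell (11 and 0 under hybridization-control centring), with summed intensities of 16499 to 22390 and 4687 to 5809, to which Krt8 and Krt18, also keratins of hepatocytes, gave the most. Krt8 rose 6.41-fold from 1368 ± 203 to 8781 ± 1395, Krt18 4.66-fold and Anxa3 2.81-fold. The duct-defining Krt19 and Krt7, named after their values were seen, were 54.3 ± 4.86 against 49.6 ± 4.39 and 17.3 ± 0.755 against 16.7 ± 0.742 (adjusted p = 0.254 and 0.59). Of 21 sinusoidal endothelial markers 9 fell and 2 rose, with a median of -0.18 that became 0.23, with 1 fall, under hybridization-control centring. Oit3 fell 1.77-fold, and Lyve1, a hyaluronan receptor of sinusoids and some macrophages, rose 3.81-fold. Among 20 annexins and S100 proteins 13 rose and 2 fell (median 0.88). Anxa5 rose 4.05-fold, and S100a1 and S100a13 fell 2.00-fold and 1.94-fold. Of 14 squamous envelope genes 5 rose and 1 fell, with a median of 0.03, and 7 rose and 0 fell under hybridization-control centring. The fall was that of the keratin Krt6a (-0.23 ± 0.08), which was not called in 8 of the 10 fits that left out 1 Scd1-/- liver and became 0.15, not called, under hybridization-control centring. Desmoplakin (Dsp) rose 1.43-fold. Sbsn rose 1.55-fold by its brightest probe set and had another called in the opposite direction. Of 11 pancreas and fat markers 1 rose (Fabp4, 3.65-fold, also made by macrophages, with a log2 change of 0.31 and no call when probe sets open to more than 1 transcript were dropped, adjusted p = 0.056) and 1 fell (Cela1, 3.09-fold), and Adipoq, which defines fat, was at the floor in all 10 livers. Their median of -0.06 became 0.27 under hybridization-control centring. Of 10 erythroid and blood markers 1 rose (Pf4, of platelets, 4.00-fold) and 3 fell, Klf1 among them (1.92-fold), with a median of -0.14 that became 0.09 under hybridization-control centring.

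Clock outputs differed between the diets, and the labels give no time of collection. Of 20 clock genes 5 rose and 5 fell, with a median of -0.08 that became 0.29 under hybridization-control centring. Dbp, an output factor of the clock, read 365, 237, 227, 289.6 and 112 on VLF and 2396, 2296, 1497, 1680.5 and 2202 on chow. It fell 8.63-fold without overlap (log2 change -3.11 ± 0.31, adjusted p = 2.51e-07, limma), and its interaction was -4.01 ± 0.44 (adjusted p = 2.32e-06). Nr1d2, a repressor in the clock loop, fell 1.90-fold, and the kinase Csnk1e rose 1.56-fold.

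The median of the ribosomal list over its genes, relative to the chow mean, was 0.39 to 0.46 in the 5 VLF livers and -0.04 to 0.04 in the 5 chow livers. For the ATF4 list these ranges were 0.61 to 1.06 and -0.03 to 0.08, and for the NRF2 list 1.00 to 1.11 and -0.03 to 0.06. Female-biased genes ranged from -2.67 to -1.87 on VLF. Some other lists also differed among the VLF livers: interferon-stimulated genes ranged from 0.20 to 1.35, neutrophil markers from -0.03 to 1.11, fatty acid synthesis from -1.27 to -0.31 and basolateral efflux from -0.04 to 0.55. Acute phase genes overlapped, at 0.00 to 0.24 on VLF and -0.17 to 0.57 on chow, where replicate 3 was the highest of all 10 livers.

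**Figure D5:**
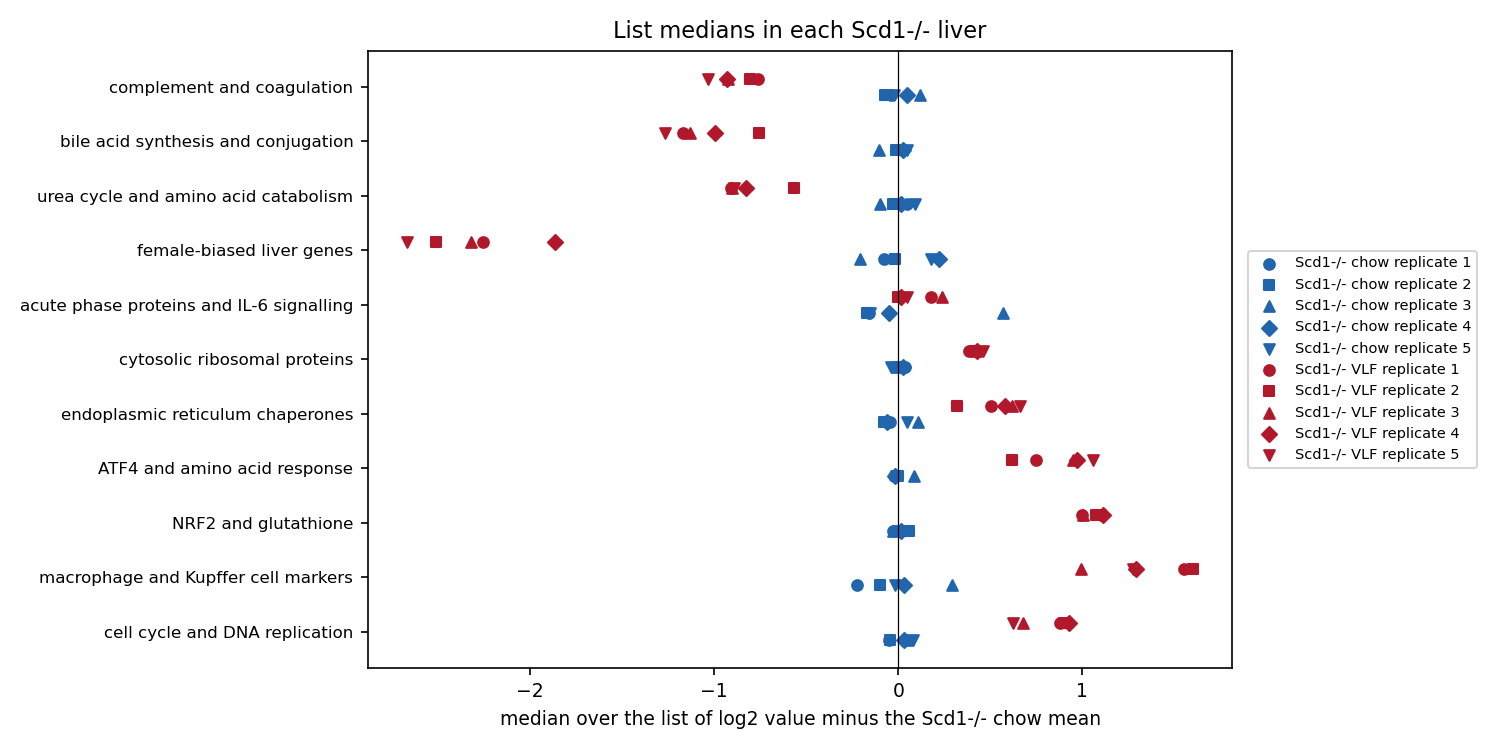
Median over each list's genes of the log2 value minus the Scd1-/- chow mean, per liver, for 11 lists; blue symbols are the 5 chow livers and red symbols the 5 VLF livers, with 1 symbol shape per replicate number. Groups separate for all 11 lists but the acute phase list, where the chow liver of replicate 3 lies at 0.57, to the right of every VLF liver.

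The 203 genes called in both genotypes were 3.21% of the calls in Scd1-/- liver and 70.7% of those in Scd1+/+ liver, 124 in the same and 79 in the opposite direction. The shared count was 30, with 6 in opposite directions, under hybridization-control centring, where 50 Scd1+/+ genes were called. With the 3' to 5' ratio as a covariate it was 2, both in the same direction, and the Scd1+/+ falls of Enho, C8b, Ces2a and Tcp11l2 described next were not called (adjusted p = 0.214 for each). Of the 6323 genes called in Scd1-/- liver, 4099 had a called interaction and 2224 did not. Enho, which encodes the peptide adropin, read 145, 151, 119, 125 and 104 on VLF and 819, 537, 888, 857 and 673 on chow, and fell in both genotypes (-2.54 ± 0.25 and -2.44 ± 0.25; interaction -0.10 ± 0.35, adjusted p = 1, limma). The complement component C8b fell in both (log2 change -2.04 ± 0.20 and -1.86 ± 0.20), with an interaction of -0.18 ± 0.28. Ces2a, a carboxylesterase, fell in both and further in Scd1-/- liver (interaction -1.86 ± 0.20, adjusted p = 2.07e-06). Tcp11l2 fell in both (-0.60 ± 0.08 and -0.68 ± 0.08), the Scd1-/- call being lost under hybridization-control centring. Among opposite pairs, Enpep, the glutamyl aminopeptidase, and Rdh16, a retinol dehydrogenase, fell in Scd1-/- liver (-1.35 ± 0.09 and -2.39 ± 0.15) and rose in Scd1+/+ liver (0.63 ± 0.09 and 1.13 ± 0.15). Neither rise was called with the covariate (adjusted p = 0.529 and 0.642), and that of Enpep was not called under hybridization-control centring (0.0571). The uncharacterized D130043K22Rik did so too (-0.49 ± 0.09 and 0.71 ± 0.09), its fall not called under hybridization-control centring and its rise not called with the covariate (adjusted p = 0.395). The widest interactions were those of Sprr1a (6.27 ± 0.29) and Sult3a1 (-6.27 ± 0.39). Among genes not named so far, positive interactions included Cdc42ep5, a cytoskeletal effector (3.69 ± 0.23), the calcium-binding Nucb2 (3.61 ± 0.23), the mitochondrial ATP carrier Slc25a24 (3.56 ± 0.23) and the milk protein Csn3 (3.42 ± 0.25). Each of these 4 rose over 9-fold in Scd1-/- liver and was not called in Scd1+/+ liver. On the negative side Rgs16, a regulator of G protein signalling, had an interaction of -4.01 ± 0.61 and Fam47e of -3.83 ± 0.30, its VLF values at the floor in 4 of 5 livers. Sult2a2 read 119.7 ± 78 on VLF and 524 ± 314 on chow, not called in Scd1-/- liver (adjusted p = 0.0692), with an interaction of -3.92 ± 1.14 (adjusted p = 0.02). Its change in Scd1-/- liver was called without the chow or the VLF liver of replicate 1 (adjusted p = 0.024 and 0.0485), among brighter probe sets only (0.0277), with the Scd1-/- groups alone fitted (0.0302) and with the 3' to 5' ratio as a covariate (0.00357).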

How the data were processed

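The members and gene lists were chosen with earlier results of these data known. The authors deposited a single intensity per probe set and array, and the submitters' processing notes name MAS5 and RMA without saying which made the values; from the values, the intensities were judged to be on a linear scale. Here array medians were brought together, values under 16 were set to 16, log2 was taken, and the 20 arrays were then given the same quantiles. Of 45101 probe sets, 64 controls were left out and 45037 tested; 34945 name 1 gene, 932 several and 9160 none, and the brightest probe set stood for each of 18193 genes. limma 3.58.1 (R 4.3.3) was fitted to all 4 groups, with 16 residual degrees of freedom, and p-values were adjusted by Benjamini-Hochberg over all probe sets. A gene was called at an adjusted p under 0.05, and p-values measure the spread between the livers of a group, each labelled as individual. Errors are SD for levels and standard errors for log2 changes, each with 5 livers a group; the number of arrays limits the precision. Named genes were the 15 largest rises and falls without overlap, up to 3 per list with up to 2 against its direction, 39 preset genes, 6 interactions each way among genes not yet named, and up to 6 genes called in both genotypes in the same and in opposite directions. Alternatives covered scaling, floor, filter, array weights, a 3' to 5' covariate, a replicate block, choice of probe set and leaving out livers; leaving out both livers that stood apart was added after seeing the data. Promoters came from RefSeq (GRCm38.p6). The fit was tested on simulated data.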

Additional observations from a re-analysis of the deposited data

Results flagged for a closer look

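In groups of 5 livers a gene was singled out where its highest or lowest liver lay apart from the other 4 by Dixon's criterion, which chance meets in about 1 in 20 groups. There were 267 named genes, each with a VLF and a chow group of Scd1-/- livers, so chance alone would flag a number of these groups. The criterion was met in 47 groups, and the chow liver of replicate 3 was the liver apart in 31 of them. Whether any single group exceeds chance was not tested. That liver read highest for Aldoa (707, next 532), Apoa4 (2090, next 1070), Ccl6 (409, next 206), Dio1 (1890, next 1520), Fabp4 (291, next 189) and Igfbp1 (6790, next 1820). It was also the highest for Lcn2 (6560, next 249), Lgals3 (322, next 195), Lgmn (439, next 305), Ly6d (112, next 59.1) and Pkm (108, next 90.9). It read lowest for Car1 (49.7, next 77.6), Car3 (6080, next 10100), Car5a (372, next 564), Car8 (799, next 985), Ccnd2 (89.7, next 131) and Cebpa (1440, next 2280). The lowest chow value was again its own for Cela1 (363, next 696), Ces1f (2310, next 3110), Cyp2b13 (1180, next 1890), Cyp2c50 (9860, next 11500), Dgat2 (2300, next 3050) and Ern1 (414, next 576). Replicate 3 was likewise lowest for Ghr (3010, next 3810), Npc1 (570, next 650), Otc (2900, next 3510), Pklr (329, next 548), Slco2b1 (998, next 1130) and Sult2a8 (3060, next 4760). Further genes at their lowest there were Ugt2b1 (2620, next 3370) and Ugt3a1 (397, next 557).

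The VLF liver of replicate 2 was apart in 8 groups. It read highest for Anxa3 (329, next 230), Ass1 (494, next 309), Car8 (738, next 450), Prom1 (1030, next 605) and Thrsp (1150, next 552), and lowest for Bag3 (359, next 456), Cd14 (1100, next 3360) and Stard4 (132, next 212). The other 8 were Abcb1a in chow replicate 4 (lowest, 46.9, next 65.1), Cebpa in VLF replicate 5 (lowest, 510, next 674), Cxcl2 in VLF replicate 3 (highest, 113, next 55.6), Insr in VLF replicate 4 (highest, 361, next 333), Mat1a in VLF replicate 5 (lowest, 4790, next 5300), Scd3 in VLF replicate 3 (lowest, 19.2, next 25.8), Tcp11l2 in chow replicate 5 (highest, 301, next 260) and Upp2 in chow replicate 4 (lowest, 1440, next 2570).

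The diet change differed between the genotypes for 4401 genes by the interaction term (limma, adjusted p under 0.05 by Benjamini-Hochberg). Among genes named for an interaction or for opposite changes, and not already for their size or list, the change in Scd1-/- liver minus that in Scd1+/+ liver, in log2, was positive for Ephx1 (1.51), Cdc42ep5 (3.69), Nucb2 (3.61), Slc25a24 (3.56), Nupr1 (3.49), Marco (3.48) and Csn3 (3.42). It was negative for Elovl6 (-3.85), D130043K22Rik (-1.20), Rdh16 (-3.52), Enpep (-1.98), Tecr (-1.01), Cyp17a1 (-4.11), Rgs16 (-4.01), Sult2a2 (-3.92), Thrsp (-3.90) and Fam47e (-3.83).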

How the results depend on the processing

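Counts in Scd1-/- liver stayed within 1.5 times of 3101 rises and 3222 falls under every alternative tried but the centring on hybridization controls, which gave 6798 rises and 871 falls, with 3965 positive and 618 negative interactions. Similar counts did not mean the same genes. Of the 6323 genes called, 4383 kept call and direction with the 3' to 5' ratio as a covariate and 4913 with a floor of 64. Under hybridization-control centring 3970 did, and 1163 no longer had the same sign. Leaving out each Scd1-/- liver in turn gave 2846 to 3180 rises and 2891 to 3476 falls. The smaller Scd1+/+ comparison moved more. Its 287 calls became 178 (59 falls) with median scaling alone, 50 (29 rises and 21 falls) with hybridization-control centring, 169 (85 and 84) with only its groups fitted, 505 (245 and 260) with array weights and 2 (0 and 2) with the 3' to 5' ratio as a covariate, and 129 to 283 (60 to 151 rises, 69 to 134 falls) without each Scd1+/+ liver. It fell to 149 without VLF replicate 1, 129 without VLF replicate 4, 137 without chow replicate 1 and 180 without chow replicate 2. Of 267 named genes, hybridization-control centring took the call from 32 and turned 2, Hspe1 (log2 change 0.118) and Krt6a (0.146), and the ratio covariate took it from 22. Sbsn turned to -0.24 when probe sets open to more than 1 transcript were dropped. The replicate block gave 3047 rises and 3142 falls, with no evidence that equal numbers pair livers: their deviations correlated at -0.07 to 0.27, and 2 of 5 matched their own number best. Hybridization-control centring adds the difference of the controls between the diets by construction, and the causes of the other shifts were not tested. Dim probe sets are limited by the floor: with a floor of 64, 15 named genes lost the call.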
